A study of Mus musculus with 4 samples.

Results

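Tubulins build microtubules and kinesins walk along or trim them, and their transcripts were described here in mouse germinal vesicle (GV) oocytes of 2 chromatin configurations. The genes were chosen by name: symbols of the alpha-, beta-, gamma-, delta- and epsilon-tubulin series (Tuba, Tubb, Tubg, Tubd and Tube with a number) and of the kinesin series (Kif with a number, and Kifc1 to Kifc3). Of the 16861 genes listed in the deposited files, 49 carried such a name, 17 tubulin and 32 kinesin genes. A filter on low values, a mean of at least 0.5 FPKM (read pairs per kilobase of gene length, scaled to the size of the library) over the 4 libraries, was passed by 41 of them, 16 tubulin and 25 kinesin genes. Tuba8, Kif1c, Kif3c, Kif13a, Kif21b, Kif26b, Kif27 and Kif28 were below it. Tubb1, Tubb4a, Kif1a, Kif2b, Kif5a, Kif6, Kif7, Kif19a and Kifc2 were not analysed here.

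The study set chromatin accessibility beside DNA methylation, histone methylation and transcription in GV oocytes of both configurations. Its RNA-seq compared oocytes whose nucleolus has no chromatin around it (NSN, non-surrounded nucleolus) with those at the later SN (surrounded nucleolus) configuration. Oocytes came from the antral follicles of 3-week-old female C57BL/6J mice, with no genetic alteration named for either group. They were stripped of cumulus cells by pipetting, stained with a Hoechst dye for DNA in medium with milrinone, a phosphodiesterase inhibitor that holds oocytes in meiotic arrest and that both groups received, sorted by eye under brief ultraviolet light, and those that could not be classified were set aside. Each library was made by Smart-seq2 from 15 pooled oocytes, with oligo(dT) priming and 18 cycles of amplification, and 2 NSN and 2 SN libraries were compared. The protocol in the labels names 3 samples for each group, of which 2 were analysed here. The labels do not tie libraries to separate animals, so each p-value measures only the spread between these libraries, which may be technical.

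A microtubule is a hollow tube of alpha- and beta-tubulin dimers. Gamma-tubulin sits in the ring complex from which new microtubules grow, while delta- and epsilon-tubulin belong to centrioles, which mouse oocytes lack. Kinesins are motors that use ATP to carry cargo, to slide or cross-link spindle microtubules, or to take tubulin off microtubule ends. The fully grown oocyte stores transcripts of these genes for the acentrosomal spindle that it assembles when meiosis resumes.

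Tubulin isotypes are very alike over most of their coding sequence and differ mainly in the acidic tail encoded at its end. The last 30 coding bases of the 5 alpha-tubulin genes with the highest levels are therefore printed first, 5′ to 3′ on the coding strand, from the GRCm39 genome and a GENCODE annotation of the same build, with the last codon before the stop in capitals. They lie at chr6:125255324-125255353 (minus strand) for Tuba3a, chr6:145567081-145567110 (plus strand) for Tuba3b, chr1:75192269-75192298 (minus strand) for Tuba4a, chr15:98935858-98935887 (plus strand) for Tuba1c and chr15:98829466-98829495 (minus strand) for Tuba1b.
Tuba3a: gaagcagaggcagaagaaggggaggagTAC
Tuba3b: gaagcagaggcagaagaaggggaggagTAC
Tuba4a: tcctatgaggacgaggatgagggagaaGAG
Tuba1c: gctgaaggagacgatgagggtgaggaaTAT
Tuba1b: ggcgagggggaggaagaaggagaggagTAC
The ends of Tuba3a and Tuba3b were identical letter for letter, and their whole coding sequences were 97.0% identical. Tuba1b and Tuba1c were 97.9% identical, and Tuba1a was 98.3% identical to Tuba1b. Tuba4a ended on a glutamate codon, where the others ended on a tyrosine codon. That terminal tyrosine is the residue which cells remove from and add back to alpha-tubulin.

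The last 60 coding bases are shown in the same way for the beta-tubulin genes Tubb4b, the most abundant, Tubb2a, which had the lowest log2 fold change, and Tubb3, which differs in its last codon. They lie at chr2:25112323-25112382 (minus strand), chr13:34258454-34258513 (minus strand) and chr8:124148359-124148418 (plus strand).
Tubb4b: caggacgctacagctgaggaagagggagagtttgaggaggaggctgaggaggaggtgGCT
Tubb2a: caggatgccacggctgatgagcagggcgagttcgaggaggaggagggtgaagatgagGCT
Tubb3: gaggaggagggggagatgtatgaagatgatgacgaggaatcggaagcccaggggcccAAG
Tubb4b and Tubb2a ended on an alanine codon and Tubb3 on a lysine codon. The coding sequences of Tubb4b and Tubb2a were 83.7% identical and those of Tubb2a and Tubb2b 96.5%, so that reads of the latter pair are harder to place. Read pairs with a low mapping quality were not counted, which lowers the values of near-identical copies by an amount that cannot be read from the files.

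The promoters of Tubb4b and Tuba3a are shown because they belong to the most abundant beta- and alpha-tubulin genes, of which Tubb4b fell in SN oocytes while both SN values of Tuba3a, which was not called, lay above its NSN values. Each stretch is the 200 bases before the annotated start of the gene's main transcript on GRCm39, at chr2:25114715-25114914 (minus strand) for Tubb4b and chr6:125263034-125263233 (minus strand) for Tuba3a, with every CCAAT in capitals.
Tubb4b: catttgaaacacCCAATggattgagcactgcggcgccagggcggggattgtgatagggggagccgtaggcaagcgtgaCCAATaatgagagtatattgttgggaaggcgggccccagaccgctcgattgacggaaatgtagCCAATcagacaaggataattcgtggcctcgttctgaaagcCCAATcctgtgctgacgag
Tuba3a: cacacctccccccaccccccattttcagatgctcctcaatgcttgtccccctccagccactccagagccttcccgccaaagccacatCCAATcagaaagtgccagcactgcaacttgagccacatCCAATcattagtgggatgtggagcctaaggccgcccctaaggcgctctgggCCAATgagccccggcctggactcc
CCAAT, searched on both strands, occurred 4 times before Tubb4b and 3 times before Tuba3a, in both genes on the coding strand. It was found in 8 of 17 tubulin and 11 of 32 kinesin promoters, against 32.3% of 21770 promoters of the same length. Of the 6 tubulin genes called lower in SN oocytes, Tuba1b, Tuba1c, Tubb4b and Tubb6 held it and Tubb2a and Tubg2 did not. The letters TATAAA, also searched on both strands, were present before Tubb2a on the coding strand and before Kif5c on the other strand, against 9.57% of all promoters.

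The libraries held 17069772 to 17998361 read pairs, recovered from the deposited FPKM, so that 3 read pairs on a gene of 1 kb corresponded to 0.167 to 0.176 FPKM. All 10 oocyte markers were present in every library, with Zp3, a zona pellucida glycoprotein, at 5208 to 7281 FPKM. The 8 listed granulosa and cumulus markers summed to 9.48 and 13.6 FPKM in NSN and 13.8 and 13.7 FPKM in SN libraries. None of their 4 tested members was called, 0 had an unadjusted p under 0.05 and voom, limma's weighting of read pairs, called 0. Amh, Foxl2 and Ptx3 were not analysed here. The part of these cells in the results was not tested. Since FPKM are shares of a library, less RNA of one gene per oocyte, fewer oocytes with it and more RNA of the other genes cannot be told apart. The authors state that transcriptome data reach mainly mRNAs with poly(A) tails and show only in part how actively genes are transcribed at the time.

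SN oocytes had lower levels of 6 tubulin genes and higher levels of 2 kinesin genes. A gene was called when limma gave a Benjamini-Hochberg adjusted p under 0.05 over all 11672 genes tested and the difference on the log2(FPKM + 0.5) scale reached a fold of 1.2, a scale that understates changes of low genes. Tuba1b, Tuba1c, Tubb2a, Tubb4b, Tubb6 and Tubg2 fell from NSN to SN oocytes, 6 of 16 tubulin genes, against 1.98% of all genes tested, and 0 tubulin genes were called higher. Kif18a and Kif20b rose, 2 of 25 kinesin genes, against 5.95% of all genes tested, and 0 kinesin genes were called lower. The kinesin share is near that background. In either direction 8 of the 41 tested members were called, against 7.93% of all genes.

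The median log2 fold change was -0.33 over the 16 tubulin genes, 0.21 over the 25 kinesin genes and 0.14 over all genes tested. The 2 SN values were both lower than the NSN values for 10 of 16 tubulin genes and both higher for 2, and for kinesins 17 of 25 lay above and 4 below. Over all genes tested 44.8% lay above and 17.8% below. When each library was scaled to the median gene, which moved the median of all genes to 0.005, the medians became -0.48 for tubulins and 0.08 for kinesins. Tubb5 then joined the 6 tubulin calls, and neither Kif18a nor Kif20b was called.

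The calls rest on 2 libraries a group, where an exact two-sided permutation test of a single gene cannot go below 0.333. Limma called 0 members without NSN replicate 1 and 0 without SN replicate 2, 4 without SN replicate 1 (Tuba1c, Tubb2a, Tubb4b and Tubg2) and 9 without NSN replicate 2, and after a correction for gene length the smallest adjusted p of a member was 0.0502, with 10 tubulin and 3 kinesin genes at an unadjusted p under 0.05.

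**Figure D1:**
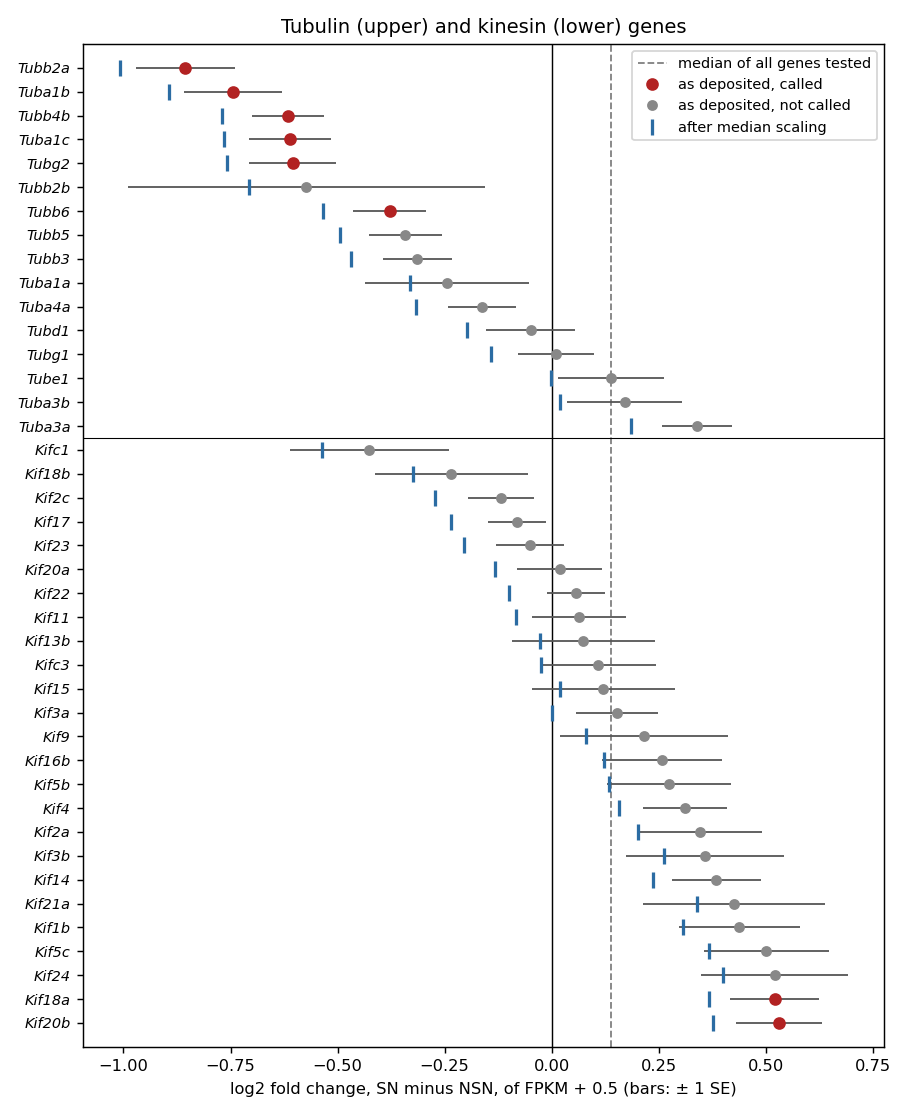
Log2 fold change, SN minus NSN, of log2(FPKM + 0.5) for the 16 tubulin (upper) and 25 kinesin genes (lower), with bars of 1 standard error, red points for called genes, blue ticks for the values after median scaling and a dashed line at the median of all genes tested. The tubulin genes run from -0.86 for Tubb2a to 0.34 for Tuba3a and the kinesin genes from -0.43 for Kifc1 to 0.53 for Kif20b, and median scaling moves each of them to the left.

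Among the alpha-tubulins, which form the minus-end face of each dimer, Tuba1b and Tuba1c fell, and Tuba3a held the highest level. Tuba3a, an isotype best known from testis, was at 289 and 268 FPKM in NSN and 336 and 369 FPKM in SN libraries. Both SN values lay above both NSN values, but the log2 fold change of 0.34 ± 0.08 (SE) missed the call, with a limma adjusted p of 0.054, and after median scaling it was 0.18 with an adjusted p of 0.274. Its near copy Tuba3b was at 25.7 and 19.8 FPKM in NSN and 26.1 and 24.8 FPKM in SN libraries, with a log2 fold change of 0.17 (adjusted p = 0.417), and the difference between its NSN libraries was larger than that between the groups. Of the exonic bases of Tuba3a, 30.6% overlap 4930417O13Rik on the other strand, a gene at 0.00935 to 0.0454 FPKM in these libraries.

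Tuba1c and Tuba1b, isotypes that dividing cells use widely, fell by a like amount. Tuba1c was at 105 and 97.2 FPKM in NSN and 70.5 and 61.6 FPKM in SN libraries, a log2 fold change of -0.61 ± 0.10 (SE, limma adjusted p = 0.036). Tuba1b was at 28.2 and 23.7 FPKM in NSN and 14.9 and 15.6 FPKM in SN libraries, a log2 fold change of -0.74 ± 0.11 (SE, adjusted p = 0.036). Neither pair of groups overlapped. In the annotation 52.8% of the 50-base stretches of Tuba1c and 42.7% of those of Tuba1b also occur in transcripts of other genes, among them each other, so how the fall divides between them is uncertain.

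Tuba4a, whose product is made without the terminal tyrosine, was the second alpha-tubulin by level, at 137 and 135 FPKM in NSN and 116 and 127 FPKM in SN libraries. Its log2 fold change was -0.16 ± 0.08 (SE) with a limma adjusted p of 0.213, the groups did not overlap, and 51.9% of its exonic bases lie opposite Stk16. Tuba1a, a neuronal isotype, was at 0.637 and 0.867 FPKM in NSN and 0.520 and 0.585 FPKM in SN libraries, from 16 to 28 read pairs a library, with a log2 fold change of -0.24 (adjusted p = 0.411). Tuba8 rested on 1 and 3 read pairs in NSN and 3 in each SN library, at which depth no difference was detectable.

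All 6 beta-tubulin genes had lower means in SN oocytes, where 3890 of all 11672 genes tested had a negative log2 fold change. Of the 6 beta-tubulin genes, 3 fell, Tubb4b, Tubb6 and Tubb2a. Beta-tubulin binds the GTP that is hydrolysed as a microtubule grows. Tubb4b, an isotype found in most tissues, was the most abundant tubulin gene in NSN oocytes, ranked 182 of 16861 genes by mean FPKM. It was at 407 and 464 FPKM in NSN and 284 and 283 FPKM in SN libraries, a log2 fold change of -0.62 ± 0.08 (SE, limma adjusted p = 0.036). The distance between the groups was larger than that between the NSN replicates. Of the 50-base stretches of Tubb4b, 55.9% occur in other transcripts, including its pseudogenes. The pseudogene Tubb4b-ps1 was listed at 2.67 and 3.09 FPKM in NSN and 1.67 and 1.79 FPKM in SN libraries.

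Tubb2a had the lowest log2 fold change of the tubulins, -0.86 ± 0.12 (SE, limma adjusted p = 0.036), at 94.7 and 93.4 FPKM in NSN and 57.9 and 46.2 FPKM in SN libraries. Bphl, a hydrolase gene on the opposite strand, overlaps 89.2% of its exonic bases, and the counting did not use strand. Bphl itself was at 1.92 to 3.21 FPKM with overlapping groups. Tubb6, an isotype of non-neuronal cells, was at 170.4 and 163 FPKM in NSN and 136 and 121 FPKM in SN libraries, a log2 fold change of -0.38 ± 0.08 (SE, adjusted p = 0.048). Genes on the other strand, Afg3l2 and Gm58538, overlap 54.8% of the exonic bases of Tubb6. Afg3l2 was at 21.2 to 23.3 FPKM with overlapping groups, and its part in the values of Tubb6 was not tested.

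Tubb3, the isotype used as a marker of neurons, and Tubb5, the general isotype of dividing cells, lay near the threshold. Tubb3 was at 62.2 and 58.8 FPKM in NSN and 48.8 and 48.3 FPKM in SN libraries, a log2 fold change of -0.31 ± 0.08 (SE, limma adjusted p = 0.061). Tubb5 was at 31.8 and 32.8 FPKM in NSN and 25.5 and 25.3 FPKM in SN libraries, a log2 fold change of -0.34 ± 0.09 (SE, adjusted p = 0.058, and 0.047 after median scaling). The SN values of both genes were below the NSN values by more than the replicates differed, and Flot1 lies opposite 45.6% of the exonic bases of Tubb5. Tubb2b was at 6.84 and 2.30 FPKM in NSN and 2.17 and 2.98 FPKM in SN libraries, so its log2 fold change of -0.57 ± 0.42 (SE, adjusted p = 0.380) rests on NSN replicate 1, and without that library it was 0.12.

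**Figure D2:**
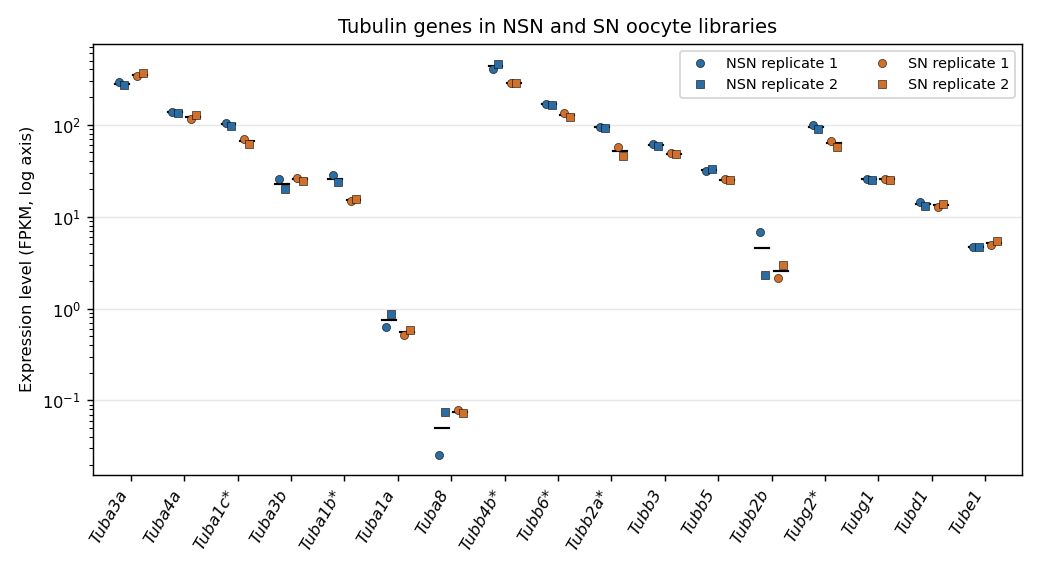
FPKM of the 17 tubulin genes on a log axis in the 2 NSN (blue) and 2 SN (orange) libraries, with circles for replicate 1, squares for replicate 2, a black line at each group mean and an asterisk on called genes. Within a family the genes are ordered by mean level, and Tuba3a and Tubb4b stand highest, at 268 to 369 and 283 to 464 FPKM.

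Summed over isotypes on the deposited scale, the alpha-tubulin level overlapped between the configurations and the beta-tubulin level was lower in SN oocytes. The alpha sum was 586 and 545 FPKM in NSN and 565 and 599 FPKM in SN libraries, with overlapping groups. The beta sum was 773 and 815 FPKM in NSN and 554 and 527 FPKM in SN libraries, a mean of 794 ± 29.7 against 540 ± 18.9 FPKM (SD, n = 2), a change of -31.9%. The ratio of alpha to beta was 0.758 and 0.669 in NSN and 1.02 and 1.14 in SN libraries. A single scale factor per library, as in median scaling, leaves this ratio unchanged, while a correction for gene length need not. The groups of the ratio did not overlap, which in an exact two-sided permutation test gives the smallest p that the design allows, 0.333. As low-quality alignments were not counted, the ratio compares counted read pairs per length and not molecules.

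The makeup of the alpha-tubulin pool differed as well. Tuba3a made up 49.3 ± 0.114% of the alpha FPKM in NSN against 60.6 ± 1.43% in SN oocytes (SD, n = 2), and Tuba1c 17.9 ± 0.0182% and 11.4 ± 1.55%. Tuba4a went from 24.1 ± 0.942% to 20.9 ± 0.483% and Tuba1b from 4.58 ± 0.324% to 2.62 ± 0.0166%, each with groups that did not overlap, while the share of Tuba3b overlapped. In the beta pool the share of Tubb4b was 54.8 ± 3.05% in NSN and 52.5 ± 1.74% in SN libraries with overlapping groups. The share of Tubb2a was 11.9 ± 0.559% in NSN and 9.61 ± 1.18% in SN oocytes, and that of Tubb6 21.1 ± 1.41% and 23.7 ± 1.05%. Shares of one pool depend on each other, and they were not tested.

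**Figure D3:**
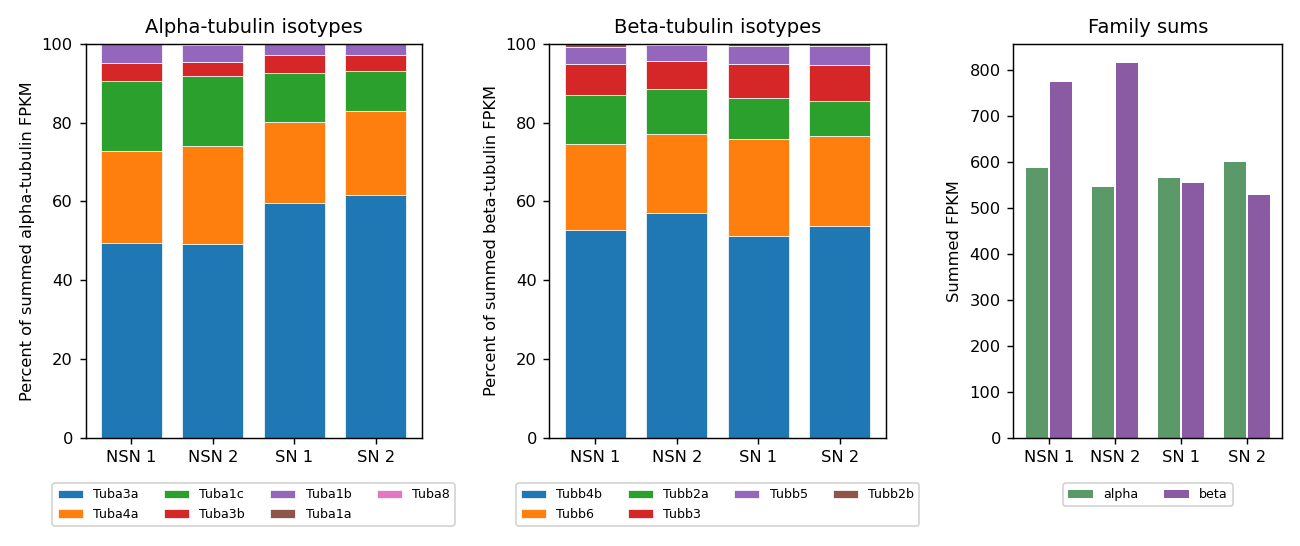
Share of each isotype in the summed alpha-tubulin (left) and beta-tubulin FPKM (middle), in percent, and the sums of both families in FPKM (right), as bars for each of the 4 libraries. Tuba3a takes 49.2% to 49.4% of the alpha sum in NSN and 59.6% to 61.6% in SN libraries, and the beta sum drops from 773 and 815 to 554 and 527 FPKM while the alpha sum stays between 545 and 599 FPKM.

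Of the 2 gamma-tubulin genes, whose products nucleate microtubules, Tubg2 fell and Tubg1 did not pass the test. Tubg2 was at 99.8 and 91.1 FPKM in NSN and 67.3 and 58.0 FPKM in SN libraries, a log2 fold change of -0.61 ± 0.10 (SE, limma adjusted p = 0.037). Tubg1 was at 26.0 and 24.9 FPKM in NSN and 26.0 and 25.2 FPKM in SN libraries, a log2 fold change of 0.01 that became -0.14 after median scaling, and its groups overlapped. Tubg2 thus made up 78.9 ± 0.566% of the gamma FPKM in NSN against 70.9 ± 1.73% in SN oocytes (SD, n = 2). On GRCm39 they lie near each other on the plus strand, Tubg1 at chr11:101010744-101017251 and Tubg2 at chr11:101046641-101052616. Their coding sequences were 93.3% identical, and 13.9% of the 50-base stretches of either occur elsewhere. The centriolar Tubd1 was at 12.8 to 14.3 FPKM with overlapping groups and a log2 fold change of -0.05. Tube1 was at 4.65 and 4.71 FPKM in NSN and 4.96 and 5.44 FPKM in SN libraries, a log2 fold change of 0.14 ± 0.12 (SE, adjusted p = 0.475) that was -0.003 after median scaling.

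Kinesin transcripts summed to 942 and 976 FPKM in NSN and 1019 and 1010 FPKM in SN libraries. Kif22 and Kif17 alone held 59.9% to 61.6% of that sum in NSN and 56.9% to 57.2% in SN libraries. Kif22, a chromokinesin that pushes chromosome arms away from the spindle poles, was at 294 and 295 FPKM in NSN and 309.7 and 302 FPKM in SN libraries, a log2 fold change of 0.06 that was -0.10 after median scaling. Kif17, a motor of cilia and dendrites, was at 287 and 289.7 FPKM in NSN and 269.7 and 275 FPKM in SN libraries, a log2 fold change of -0.08 ± 0.07 (SE, limma adjusted p = 0.442). The groups of either gene did not overlap, but the differences were small and were not called. By rank among all genes, Kif22 was at 219 and Kif17 at 238, close to Tuba3a at 209.

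Kif20b and Kif18a were the kinesins that rose, and both work in cell division. Kif20b, a motor of the late mitotic spindle and of abscission, was at 55.1 and 65.4 FPKM in NSN and 86.4 and 87.5 FPKM in SN libraries. Its log2 fold change was 0.53 ± 0.10 (SE, limma adjusted p = 0.041), and after median scaling it was 0.38 with an adjusted p of 0.067. Kif18a, which dampens chromosome movements at the plus ends of kinetochore microtubules, was at 26.1 and 28.6 FPKM in NSN and 36.8 and 42.1 FPKM in SN libraries. The log2 fold change of Kif18a was 0.52 ± 0.10 (SE, adjusted p = 0.043), and 0.37 with an adjusted p of 0.082 after median scaling. For both genes the groups were apart by more than the replicates, and the relative rise over the median gene was not called. On GRCm39 Kif20b spans chr19:34899752-34953149 and Kif18a chr2:109111083-109173023, both on the plus strand. None of the 50-base stretches of either gene occurs in another transcript.

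Among the 13 listed kinesins of spindle and chromosomes, the other 11 did not pass the test. Kif4, a chromokinesin that works with Prc1 on the central spindle, was at 49.3 and 56.9 FPKM in NSN and 67.7 and 64.0 FPKM in SN libraries, a log2 fold change of 0.31 ± 0.10 (SE, limma adjusted p = 0.089). Kif14, needed for cytokinesis, was at 9.97 and 10.9 FPKM in NSN and at 13.8 FPKM in both SN libraries, a log2 fold change of 0.38 (adjusted p = 0.068). In both genes the SN values were above the NSN values. Kif23, a subunit of centralspindlin, was at 60.3 and 64.0 FPKM in NSN and 60.3 and 59.5 FPKM in SN libraries. Its paralogue Kif20a, a carrier of the chromosomal passenger complex, was at 29.2 and 28.5 FPKM in NSN and 31.2 and 27.4 FPKM in SN libraries. The groups overlapped for Kif23 and Kif20a, and 61.5% of the exonic bases of Kif20a lie opposite Brd8 and Cdc23.

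Kif2c, which takes tubulin off microtubule ends at centromeres, was at 69.3 and 68.6 FPKM in NSN and 62.3 and 64.6 FPKM in SN libraries, a log2 fold change of -0.12 ± 0.08 (SE, limma adjusted p = 0.328). Kif2a, the related depolymerase of spindle poles, had a mean of 6.04 ± 0.775 FPKM in NSN against 7.81 ± 0.994 FPKM in SN oocytes (SD, n = 2), which is a log2 fold change of 0.35 (adjusted p = 0.160). Of the exonic bases of Kif2a, 41.1% lie opposite Dimt1, a gene at 5.26 to 7.19 FPKM in these libraries, and the counting did not use strand. Kif2c and Kif2a differed in sign, and neither was called. Kif11, the motor that pushes spindle poles apart, was at 10.1 to 11.5 FPKM with overlapping groups. Kif15, which shares that task, was at 0.946 and 0.862 FPKM in NSN and 0.989 and 1.06 FPKM in SN libraries, a log2 fold change of 0.12. Kifc1, a minus-end motor that focuses poles, was at 1.68 and 1.42 FPKM in NSN and 1.19 and 0.872 FPKM in SN libraries, a log2 fold change of -0.43 (adjusted p = 0.170) from 37 to 69 read pairs, and 46.3% of its 50-base stretches are shared with other transcripts, among them Kifc5b and Kifc5c-ps. Kif18b, a plus-end depolymerase, was at 0.743 and 0.890 FPKM in NSN and 0.616 and 0.618 FPKM in SN libraries (log2 fold change -0.23, adjusted p = 0.400).

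The 8 tested kinesins of cargo transport all had higher values in both SN than in both NSN libraries, as 44.8% of all genes tested did, and 0 of them were called. Limma gave 2 of them an unadjusted p under 0.05, and voom called 2, Kif1b and Kif5c. The largest share of this group came from Kif3a, a subunit of the heterotrimeric kinesin of cilia, at 21.2 and 21.9 FPKM in NSN and 25.2 and 22.9 FPKM in SN libraries, a log2 fold change of 0.15 (adjusted p = 0.315) that was 0.002 after median scaling. Its partner Kif3b was far lower per length, at 0.601 and 0.832 FPKM in NSN and 1.09 and 1.02 FPKM in SN libraries. Of the conventional kinesin heavy chains, Kif5c had a mean of 2.97 ± 0.244 FPKM in NSN against 4.42 ± 0.499 FPKM in SN oocytes (SD, n = 2), which is a log2 fold change of 0.50 (adjusted p = 0.076). Kif5b had 4.57 ± 0.399 and 5.64 ± 0.766 FPKM (log2 fold change 0.27, adjusted p = 0.238). Kif1b, a carrier of synaptic vesicle precursors and mitochondria, had 2.42 ± 0.220 and 3.45 ± 0.0762 FPKM (log2 fold change 0.44, adjusted p = 0.094). The endosomal motor Kif16b and the motors Kif13b and Kifc3 had log2 fold changes of 0.26, 0.07 and 0.11, of which those of Kif13b and Kifc3 became -0.03 and -0.02 after median scaling.

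Kif24, which acts on centriolar microtubules, had a mean of 1.49 ± 0.306 FPKM in NSN against 2.34 ± 0.0781 FPKM in SN oocytes (SD, n = 2), which is a log2 fold change of 0.52 (adjusted p = 0.098 by limma), as large as that of the called Kif18a but from 124 to 241 read pairs. Kif9, a motor of motile cilia, had overlapping groups at 2.76 to 4.36 FPKM. Kif21a, which slows microtubule growth at the cell cortex, was at 0.401 and 0.709 FPKM in NSN and 0.971 and 0.835 FPKM in SN libraries (log2 fold change 0.43, adjusted p = 0.218). The 7 kinesins below the filter were at 0.0158 to 0.526 FPKM in single libraries, and Kif1c, Kif26b and Kif28 rested on 1 to 19 read pairs, so that no difference was detectable in them.

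**Figure D4:**
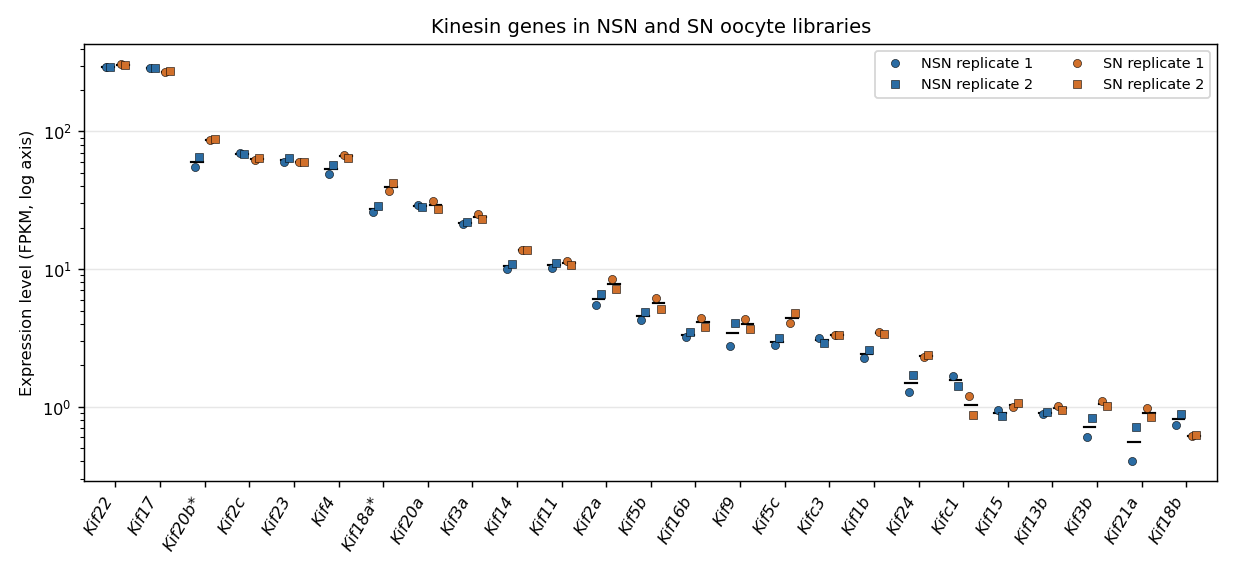
FPKM of the 25 kinesin genes that passed the filter, on a log axis and ordered by mean level, in the 2 NSN (blue) and 2 SN (orange) libraries, with circles for replicate 1, squares for replicate 2, a black line at each group mean and an asterisk on called genes. Kif22 and Kif17 stand apart at 269.7 to 309.7 FPKM, and the next gene, Kif20b, is at 55.1 to 87.5 FPKM.

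The differences varied with gene length, and not in a single direction. The counted exon length, recovered from the FPKM, had a median of 1802.5 bases over the tested tubulin genes (1509 to 2929) and of 4858 bases over the tested kinesin genes (2115 to 15184), against 2626 bases over all genes tested. All 11 kinesins longer than 5000 bases had a higher mean in SN oocytes, with a median log2 fold change of 0.39, while of the 14 shorter ones 9 did, with a median of 0.06. Over all genes longer than 5000 bases 78.7% were higher in SN oocytes, with 204 called higher and 6 lower. The shortest genes, up to 1500 bases, also had mostly higher values in SN oocytes (68% of 3086 genes, median log2 fold change 0.16, 175 called higher and 62 lower), and 0 tested members were that short. The 1272 genes of 1500 to 2000 bases had a median log2 fold change of 0.09, and the 11 tubulin genes among them had -0.38.

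After a correction that removed from each library its loess trend of log2 values on length, the median was -0.38 for tubulins and 0.08 for kinesins. The log2 fold changes of the called tubulins were then -0.93 for Tubb2a, -0.81 for Tuba1b, -0.70 for Tubb4b, -0.67 for Tubg2, -0.67 for Tuba1c and -0.45 for Tubb6, with adjusted p from 0.0502 to 0.0579. Those of Kif18a and Kif20b were 0.45 and 0.35, with adjusted p of 0.070 and 0.079. No gene of the whole table was called under this correction, with an unadjusted p under 0.05 for 3127. The part of gene length in the kinesin values was not tested further.

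**Figure D5:**
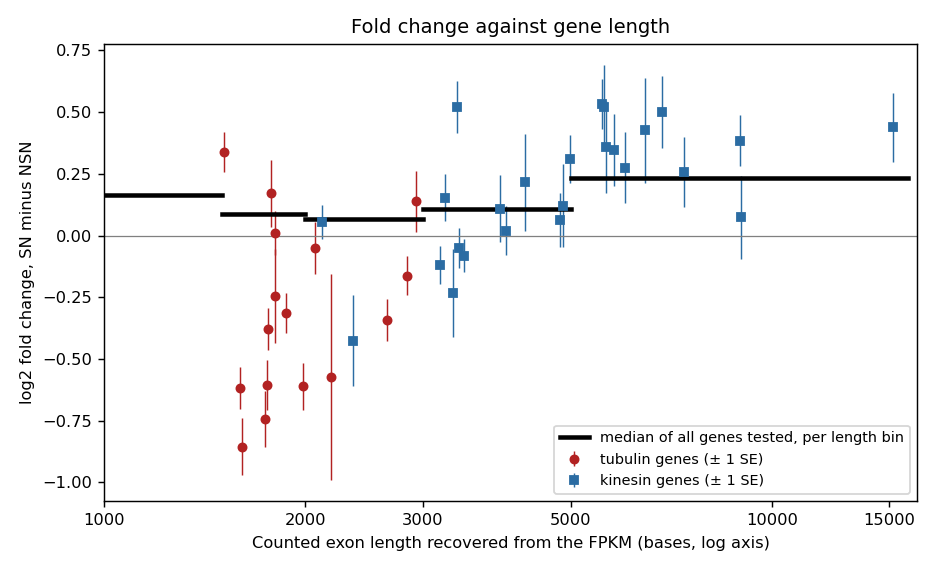
Log2 fold change, SN minus NSN, with bars of 1 standard error, against the counted exon length on a log axis for tubulin genes (red circles) and kinesin genes (blue squares), with black lines at the median of all genes tested in each of 5 length bins. The tubulins lie at 1509 to 2929 bases and mostly below the black lines of 0.09 and 0.07. The kinesins over 5000 bases lie mostly above the line of 0.23, from 0.07 to 0.53 with a median of 0.385.

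The other genes of the microtubule pathway were taken from 6 lists. Of all genes tested, 5.95% were called higher and 1.98% lower. Of 20 tested genes for tubulin folding, 1 was called higher, a share near that of all genes, and 2 lower. Cct4 and Cct6a, subunits of the chaperonin that folds tubulin and actin, fell, Cct4 from 50.5 and 38.0 FPKM in NSN to 19.5 and 17.2 FPKM in SN libraries (log2 fold change -1.23, limma adjusted p = 0.036) and Cct6a from 8.30 and 5.59 to 3.28 and 2.08 FPKM (-1.23, adjusted p = 0.042). Pfdn6, a subunit of prefoldin, which hands tubulin to that chaperonin, rose from 36.2 ± 3.16 to 52.5 ± 0.849 FPKM (SD) (0.53, adjusted p = 0.038). The summed level of the folding list was 2764 and 2808 FPKM in NSN and 2633 and 2822 FPKM in SN libraries, so it overlapped, and its median log2 fold change was -0.04. After median scaling, of these 3 genes only Cct4 was called.

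Of 21 tested genes of the gamma-tubulin ring complex and microtubule-organizing centres, 1 was called higher and 1 lower. Over all genes tested these shares were 5.95% and 1.98%, so the counts are near that background. Pcnt, pericentrin, which scaffolds the organizing centres of the oocyte, rose from 17.9 and 19.8 FPKM in NSN to 25.7 and 27.0 FPKM in SN libraries (log2 fold change 0.47, limma adjusted p = 0.044). Haus4, a subunit of augmin, which recruits gamma-tubulin to spindle microtubules, fell from 98.3 and 81.6 to 64.9 and 62.6 FPKM (-0.49, adjusted p = 0.046). The median of this list, 0.14, was that of all genes tested, and 0 of its genes were called after median scaling.

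Of 19 tested microtubule-associated proteins of the spindle, 4 were called higher and 0 lower, with a median log2 fold change of 0.30, where 5.95% of all genes tested were called higher. Map9 rose from 2.99 and 3.03 FPKM in NSN to 4.71 and 5.13 FPKM in SN libraries (0.62, limma adjusted p = 0.044), Cltc, the clathrin heavy chain that also bridges spindle fibres, from 15.7 and 17.9 to 24.5 and 25.9 FPKM (0.57, adjusted p = 0.039), and Ckap5, a microtubule polymerase, from 9.02 and 11.3 to 15.0 and 15.5 FPKM (0.57, adjusted p = 0.049). Their fold changes after median scaling were 0.49, 0.42 and 0.42 on the log2 scale, and 0 genes of the list were then called. The median counted length of the list was 4642 bases.

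Of 19 tested genes for tubulin modification and severing, 3 were called higher and 0 lower, against 5.95% and 1.98% of all genes tested. These 3 were on the severing side, while voom called 5 higher, with the modification genes Ttll4 and Ttll5 among them. Spast, which encodes the severing enzyme spastin, rose from 20.3 and 23.0 FPKM in NSN to 35.4 and 31.6 FPKM in SN libraries (log2 fold change 0.62, limma adjusted p = 0.038). Katnbl1, a partner of katanin, rose from 65.3 and 64.9 to 91.0 and 93.0 FPKM (0.50, adjusted p = 0.036), and Fignl1, a relative of fidgetin that also acts in DNA repair, from 38.4 and 41.0 to 51.1 and 54.5 FPKM (0.41, adjusted p = 0.045). None of the 3 was called after median scaling. Of 26 tested genes of cytoplasmic dynein and dynactin, the minus-end transport machinery, 0 were called higher and 1 lower, the light chain Dynll1 at 8.81 and 8.86 FPKM in NSN and 5.94 and 6.11 FPKM in SN libraries (-0.52, adjusted p = 0.045, and 0.047 after median scaling). Limma called 0 of 5 tested kinesin light chains and adaptors, with 0 at an unadjusted p under 0.05 and 0 called by voom, and the highest of them, the mitochondrial adaptor Trak1, was at 2.33 ± 0.247 FPKM in NSN and 2.35 ± 0.151 FPKM in SN libraries (SD).

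Oocyte markers also differed between the groups. Of the 10, 8 were called lower in SN oocytes and 0 higher, against 1.98% and 5.95% of all genes tested, with a median log2 fold change of -0.59 and a sum of 22192 and 20944 FPKM in NSN and 15159 and 14372 FPKM in SN libraries. Gdf9, an oocyte growth factor, fell from 5239 and 4929 to 2575 and 2289 FPKM (log2 fold change -1.07, limma adjusted p = 0.036), while Oosp1 was at 1874 and 1852 FPKM in NSN and 1779 and 2032 FPKM in SN libraries. The fall of the tubulin genes thus stood beside a fall of abundant transcripts that mark the oocyte, and the part of the latter in the FPKM of the other genes was not tested.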

How the data were processed

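The authors trimmed reads with Trim Galore 0.6.10, used HISAT2 for alignment to GRCm39 and featureCounts for read pairs on GENCODE exons (primary alignments, mapping quality of at least 10, strand not used), and deposited FPKM made with a script of their own. Their DESeq2 comparison was not used here. Whole read pairs and counted lengths were recovered from the FPKM for 99.9% of genes. The number of read pairs limits the precision of a value, and amplified read pairs are not independent molecules. Groups came from the sample titles.

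SN was compared with NSN by limma 3.58.1 in R 4.3.3 (lmFit, eBayes with a variance trend) on log2(FPKM + 0.5) over 11672 genes, two-sided, with Benjamini-Hochberg adjustment over all of them. The fit was tested on simulated data, in which wrong calls were clearly more frequent than the threshold on adjusted p allows, so single calls near that threshold are less certain than their adjusted p. Every tubulin and every tested kinesin gene is named. Called kinesins and the 10 highest by mean FPKM are given in every library, and each pathway list by at most 3 called genes with the largest change. Members and lists were chosen with earlier results of these data known. Alternatives were other pseudocounts, filters, scalings, a replicate block, a length correction by loess with a span of 0.3, voom on recovered read pairs, and leaving out each library. Sequences, positions and overlaps came from GRCm39 and a later GENCODE release, read with Biopython 1.88 and pysam 0.24.0. Other values were computed with Python 3.11.15 and pandas 2.3.3, plots with matplotlib 3.10.9.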

Additional observations from a re-analysis of the deposited data

How the results depend on the processing

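Most counts of calls moved with the processing, and where they did the cause was not tested unless the alternative itself shows it. Over all genes, 926 were called (75.1% higher in SN). A filter at a mean FPKM of 5, which leaves fewer genes to adjust for, gave 1496 (1169 higher, 327 lower), median scaling 258 (78 higher, 180 lower, 30.2% higher), quantile normalization 230 (74 higher, 156 lower, 32.2%) and voom on recovered read pairs 2292 (1759 higher, 533 lower). Limma called 0 genes, 0 tubulins, 0 kinesins and 0 pathway genes when no filter was set, when the variance trend was dropped, and under the length correction with or without the replicate block, where 4092, 3449, 3127 and 2765 genes had an unadjusted p under 0.05. Leaving out one library gave 0 to 1685 calls over all genes, 0 to 6 tubulin, 0 to 3 kinesin and 0 to 16 pathway calls. Without NSN replicate 1 and SN replicate 2, which gave 0 and 11 calls, 2278 and 2682 genes had an unadjusted p under 0.05, and the lone library of a group is assumed to vary like the others.

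The 6 tubulin calls became 5 (without Tubb6) at a pseudocount of 0.1, and 9 both with voom and with the filter at 5 FPKM, which added Tuba3a, Tubb3 and Tubb5. The 2 kinesin calls became 4 with the filter at 5 FPKM, 7 with voom, and 0 after median scaling and quantile normalization, with 9 kinesins (5 higher, and Kif17, Kif23, Kif2c and Kifc1 lower) and 6 kinesins (4 higher, and Kif2c and Kifc1 lower) at an unadjusted p under 0.05. The 13 pathway calls became 2 after median scaling, 3 after quantile normalization and 26 with voom. The tubulin median log2 fold change of -0.33 was -0.48 after median scaling, -0.43 after quantile normalization, -0.38 with the length correction (with or without the block) and -0.36 with voom, and -0.34 to -0.30 with a library left out. The kinesin median of 0.21 was 0.080 after median scaling and 0.078 with the length correction (with or without the block), and 0.15 to 0.33 with a library left out. By read pairs in place of FPKM, the share of Tuba1b in the alpha pool moved by -1.67 and that of Tubb5 in the beta pool by 0.921 percentage points, against -1.96 and 0.629. That of Tuba3b, 0.372, ranged from -0.0016 to 0.746 with a library left out.

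The labels do not say whether libraries with the same replicate number were collected together. The correlation of the replicate differences of NSN and SN across genes was -0.07, which cannot show whether they were, so a pairing stays unknown. With the replicate number as a block, limma called 422 genes (266 higher, 156 lower), 5 tubulins (Tubb6 at an adjusted p of 0.063), 2 kinesins and 5 pathway genes.

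None of the members that changed sign was called in the fit reported. After median scaling, log2 fold changes became -0.0026 for Tube1, -0.14 for Tubg1, -0.084 for Kif11, -0.027 for Kif13b, -0.13 for Kif20a, -0.099 for Kif22 and -0.025 for Kifc3. After quantile normalization they were -0.0087 for Tube1, -0.14 for Tubg1, -0.11 for Kif11, -0.011 for Kif13b, -0.11 for Kif20a, -0.0065 for Kif3a and -0.039 for Kifc3. With the length correction, with or without the block, they were -0.054 for Tubg1, -0.086 for Kif11, -0.17 for Kif13b, -0.031 for Kif15 and -0.086 for Kif20a. With a library left out, values ran from -0.013 to 0.35 for Tuba3b, -1.27 to 0.12 for Tubb2b, -0.11 to 0.0076 for Tubd1, -0.021 to 0.040 for Tubg1, -0.0028 to 0.13 for Kif11, -0.073 to 0.11 for Kif20a and -0.031 to 0.46 for Kif9. Among the values of single members with all 4 libraries in the fit, 358 held both their sign and their call or lack of one, 39 lost the call, 15 gained one and 24 switched sign.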

Other observations

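A pair of related genes lies outside the naming rule and was chosen after its values were seen. Tubal3, an alpha-tubulin-like gene, rose from 3.73 and 4.54 FPKM in NSN to 7.64 and 7.11 FPKM in SN libraries (log2 fold change 0.77, standard error 0.14, limma adjusted p = 0.038), and after median scaling it was at 0.63 with an adjusted p of 0.058. Cenpe, the kinesin of kinetochores that carries chromosomes to the metaphase plate, was at 47.8 and 60.5 FPKM in NSN and 76.6 and 74.6 FPKM in SN libraries (log2 fold change 0.49, standard error 0.12, adjusted p = 0.057), close in level to Kif20b. Both genes had SN values above the NSN values.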
